A study of Homo sapiens with 12 samples.

Results

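TCam-2 is an established human cell line derived from a seminoma, a testicular germ cell tumour whose cells resemble primordial germ cells. Its cells received 15 µM I-BRD9 for 24 h, or DMSO, the solvent of the compound, for the same time, and the response of every measured gene to I-BRD9 is described here. The members are the 3 libraries titled as TCam-2 with I-BRD9 and the 3 titled as TCam-2 with DMSO, together 6 of the 12 libraries of the series. The other 6 come from the same treatment of 2102 EP, an embryonal carcinoma line. The labels give the genotype as wild type in every group. TCam-2 was grown in RPMI medium and 2102 EP in DMEM. The values describe 1 line at 1 dose and 1 time, and an inactive control compound was not analysed here. The labels call the replicates biological without saying how the cultures were kept apart, so the p-values measure the spread between these samples, which may be technical. The series addresses BRD9 inhibition in these tumours, and the comparison asks which transcripts change in the seminoma line.

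BRD9 is a subunit of the non-canonical BAF complex, a form of the SWI/SNF chromatin remodelling machinery that lacks several subunits of the canonical complex and holds BICRA or BICRAL in their place. Its bromodomain binds acetylated lysine on histones and other proteins, and I-BRD9 occupies that pocket without removing the protein. In pluripotent cells the non-canonical complex is known for its part in keeping pluripotency genes active. Seminoma cells share the factors NANOG and POU5F1 with embryonal carcinoma and carry the germ cell factors SOX17, TFAP2C and PRDM1, whereas high SOX2 is a mark of embryonal carcinoma.

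The DMSO libraries carried several markers of their label, though not all 10 seminoma markers set them apart from 2102 EP. SOX17, the germ cell factor, had 198, 195 and 185 CPM (counts per 1000000 of the library, scaled by edgeR's TMM factors), TFAP2C 983, 1472 and 1169 CPM and PRAME 139, 148 and 166 CPM in DMSO replicates 1, 2 and 3. SOX2 stood at 15.9, 15.6 and 19.7 CPM, against a mean of 468 CPM in 2102 EP with DMSO. NANOS3 had only 0.944, 1.06 and 1.10 CPM with DMSO. ALPL, with 30.6, 26.3 and 28.5 CPM, lay below its mean of 52.3 CPM in 2102 EP with DMSO. The 10 seminoma markers summed to 2763 to 3194 CPM per library with DMSO and to 1581 to 1735 CPM with I-BRD9. In 2102 EP with DMSO they summed to 805 CPM, of which POU5F1 held 386 and NANOG 175 CPM. The 10 embryonal carcinoma markers summed to 158.0 to 166 CPM and 76.3 to 85.1 CPM, the 8 fibroblast markers to 191 to 198 CPM and 89.7 to 136 CPM, and the 10 blood and immune markers to 2.02 to 3.54 CPM and 2.09 to 2.67 CPM. Within the fibroblast list COL1A2, with THY1 and COL1A1, supplied most of the counts, and DCN had no count in the DMSO libraries. In the blood list LYZ, CD3E and HBB had no count in any TCam-2 library.

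Library totals lay between 8246626 and 10053366 estimated counts, at which 3 counts in a single library correspond to 0.299 to 0.365 CPM. Totals, the number of genes with a count, and the shares of mitochondrial (6.07 to 7.76%), ribosomal protein and top 20 genes had exact 2-sided permutation p-values between 0.3 and 0.8, where 3 libraries against 3 cannot give a p below 0.1. The main principal component of the 6 libraries held 56.6% of the variance and parted I-BRD9 from DMSO. Replicates had Pearson r between 0.976 and 0.981 across genes and were further apart than counting error alone gives (chi-square divided by its degrees of freedom, 4.78 to 9.97). In bulk RNA, fewer cells with a transcript and less transcript per cell cannot be told apart.

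BRD9 itself (ENSG00000028310, chromosome 5, 850291 to 892824, minus strand) was measured at 138, 142 and 145 CPM with DMSO and 115, 129 and 125 CPM with I-BRD9. The 3 I-BRD9 libraries lay below the 3 DMSO libraries by a small margin that did not pass the test (log2 fold change −0.21 ± 0.09, adjusted p = 0.0965, edgeR quasi-likelihood with Benjamini-Hochberg adjustment over all genes). BRD7, the related bromodomain subunit of the PBAF complex, had 346, 365 and 356 CPM with DMSO and 353, 368 and 357 CPM with I-BRD9, and the groups overlapped (log2 fold change 0.02 ± 0.07, adjusted p = 0.906). The compound acts on protein, so these levels do not report its inhibition.

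The deposited table lists 63241 genes, of which 15614 passed the low-count filter, and 4959 (31.8% of those tested) were called at an adjusted p under 0.05. Among the genes tested 2389 (15.3%) rose and 2570 (16.5%) fell. At least 2-fold changes were called for 732 rises (4.69%) and 791 falls (5.07%), so that numbers in both directions were close at this size. Beyond that the falls outnumbered the rises: at least 4-fold, 317 genes fell and 147 rose, at least 8-fold 151 and 40, and at least 16-fold 64 and 15. The median log2 fold change of all genes was 0.01, and its quartiles were −0.32 and 0.37. In 7133 genes (45.7%) every I-BRD9 library lay on the same side of every DMSO library, which held for 4822 of the 4959 called genes. The low-count filter was run on all 12 libraries, so the genes tested include some with few or no counts in TCam-2. Such genes are part of the shares of all genes given here and below, and can lower them. A fit on the 6 TCam-2 libraries alone tested 14038 genes and called 2661 higher and 2781 lower.

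**Figure D1:**
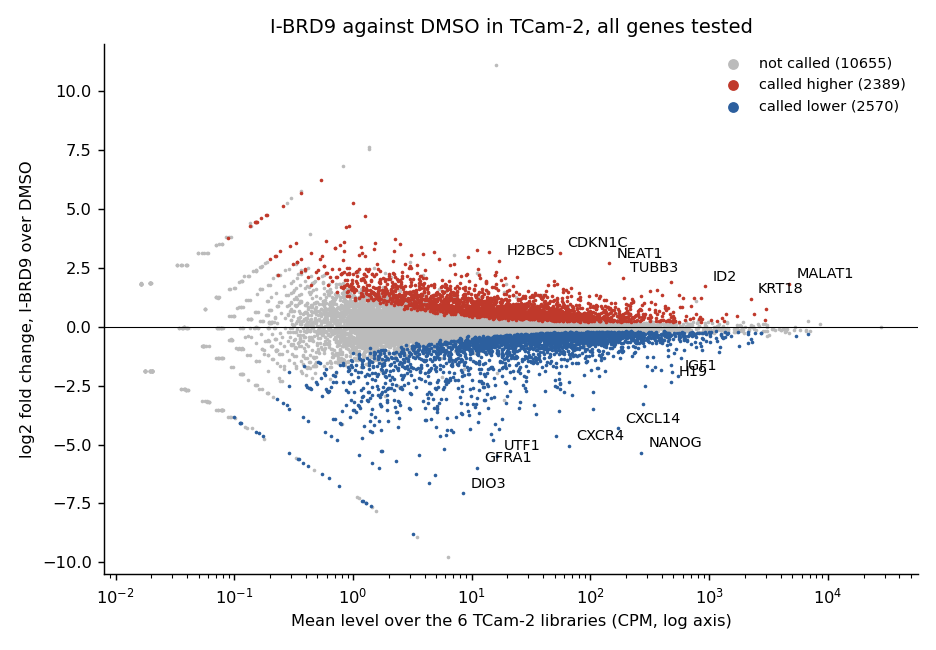
Log2 fold change of I-BRD9 over DMSO (vertical axis) against the mean level over the 6 TCam-2 libraries in CPM (horizontal log axis), 1 point per gene tested. Red points are the 2389 genes called higher and blue points the 2570 called lower, and the falls of NANOG, CXCR4 and CXCL14 are larger than any rise of a gene at their levels.

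With the genes split into 5 classes of equal size by their mean CPM in the 6 libraries, the lowest class (up to 2.09 CPM) had 6.88% called higher and 6.95% called lower. In the highest class (from 55.7 CPM) 15.6% were called higher and 30.4% lower, and its median log2 fold change was −0.09. The genes called lower took 28.9 to 29.1% of each DMSO library's counts and 21.1 to 21.3% of each I-BRD9 library's, and those called higher 10.1 to 10.3% and 16.5 to 16.6%. The calls that define these genes come from the same libraries. Salmon divides reads that fit several genes, which shows as an estimated count that is not whole (by more than 0.01). Such shared reads were present in a TCam-2 library for 1055 of the called genes (21.3%), and their levels are uncertain. They are mentioned below for some of these genes only. Others include MALAT1, KRT8, FTH1, BASP1, ACTG1, IGF1, HSP90AB1, BCYRN1, MT-ATP6, H2BC5, H2BC21, KIF1A, CDH2, MMP2, CFLAR, BCL11B, AURKA and BUB1B.

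The strongest falls included developmental and signalling genes. The ranking took called genes with a mean of 10 CPM or more in 1 group and no overlap between the groups, so separation is a condition of the choice and not a result. NANOG, a core transcription factor of pluripotency with pseudogenes that share its reads (ENSG00000111704, chromosome 12, 7787794 to 7799141, plus strand), had 494, 527 and 553 CPM with DMSO and 12.6, 9.73 and 16.1 CPM with I-BRD9. Each I-BRD9 library held a small remainder of what each DMSO library held (log2 fold change −5.35 ± 0.13, adjusted p = 7.57e-17). CXCR4 (ENSG00000121966, chromosome 2, 136114349 to 136118165, minus strand), the chemokine receptor that guides migrating germ cells, went from 129 ± 3.17 to 3.90 ± 0.369 CPM (SD, n = 3; log2 fold change −5.05 ± 0.16, adjusted p = 2.42e-16). CXCL14 (ENSG00000145824, chromosome 5, 135570679 to 135579279, minus strand), a secreted chemokine, had 328, 300.3 and 341 CPM with DMSO and 13.2, 16.7 and 19.3 CPM with I-BRD9 (log2 fold change −4.31 ± 0.12, adjusted p = 2.82e-17). In all 3 genes the replicates of a group lay within a narrow band and far from the other group.

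DIO3 (ENSG00000197406, chromosome 14, 101561351 to 101563452, plus strand), the deiodinase that inactivates thyroid hormone, had 12.7, 18.5 and 19.1 CPM with DMSO and 0.0989, 0.120 and 0.116 CPM with I-BRD9. With 3 counts over the I-BRD9 libraries its level with DMSO was higher by a ratio of 152 (95% counting interval 51.5 to 738). GFRA1 (ENSG00000151892, chromosome 10, 116056925 to 116273467, minus strand), the receptor for the growth factor GDNF, had 21.7, 24.4 and 19.6 CPM with DMSO and 0.297, 0 and 0.696 CPM with I-BRD9 (log2 fold change −5.98 ± 0.46, adjusted p = 4.39e-09). UTF1 (ENSG00000171794, chromosome 10, 133230274 to 133231558, plus strand), a chromatin factor of pluripotent and germ cells, had 32.2, 34.2 and 28.7 CPM with DMSO and 0.989, 0.721 and 0.348 CPM with I-BRD9 (log2 fold change −5.47 ± 0.22, adjusted p = 1.42e-14). In these 3 genes every I-BRD9 library lay below 1 CPM and every DMSO library above 10 CPM. Other leading falls were those of RNASE1, a secreted ribonuclease (−5.20), ANGPTL4, an inhibitor of lipoprotein lipase (−4.65), CD38, an ectoenzyme that breaks down NAD (−4.58), ETV4 (−4.54) and ETV5 (−4.14), transcription factors of the ETS family, ASIC2, a proton-gated channel (−4.46), FGF16, a fibroblast growth factor (−4.40), and MSC, a basic helix-loop-helix repressor (−4.33). ANGPTL4, CD38, ASIC2 and FGF16 had shared reads in at least 1 library.

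Some genes at lower levels lost nearly all their counts. KCNIP4, a potassium channel-interacting protein, had 7.55, 6.16 and 5.63 CPM with DMSO, 168 counts in all, and no count in any I-BRD9 library, so its level with DMSO was at least 58.1-fold higher, taking 3 counts for the whole I-BRD9 group as the floor. The pluripotency genes FGF4, VENTX and GDF3 kept 2 or 3 counts. Their levels with DMSO exceeded those with I-BRD9 by ratios of 117 (95% counting interval 32.1 to 975), 87.9 (95% counting interval 29.7 to 429) and 61.8 (95% counting interval 16.7 to 516). In the other direction PGAM2, the muscle form of phosphoglycerate mutase, had no count with DMSO and 0.593, 1.56 and 1.04 CPM with I-BRD9, at least 8.99-fold higher. Intervals and floors cover counting error only.

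**Figure D2:**
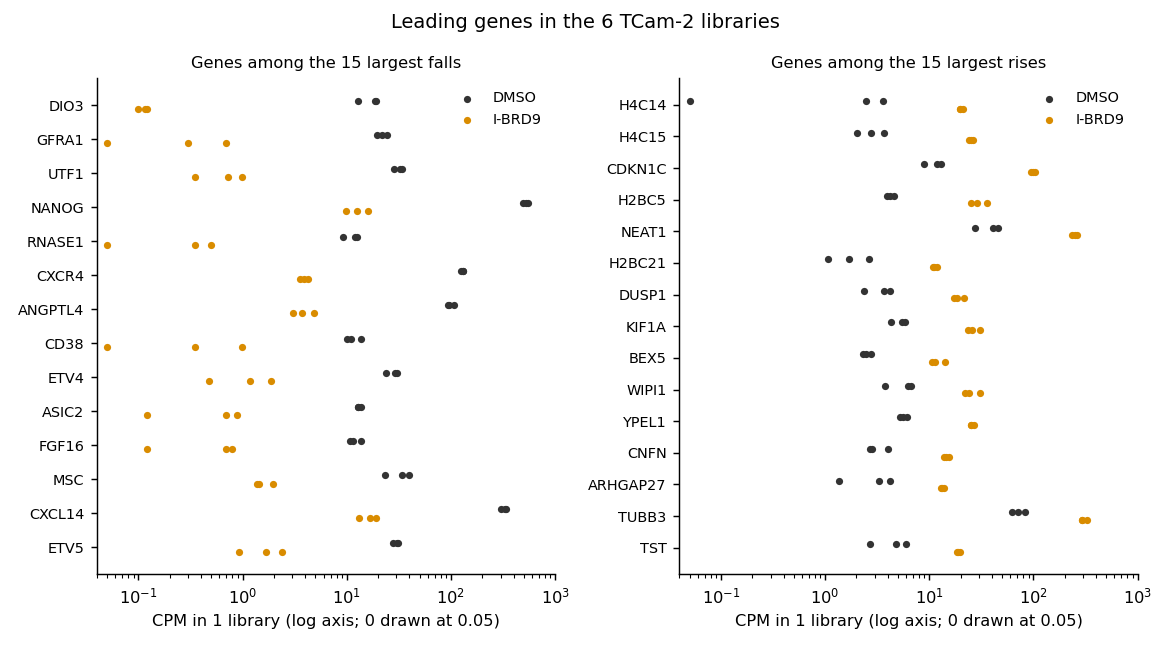
CPM in each of the 6 libraries (log axis, a value of 0 drawn at 0.05) for genes among the 15 with the largest falls (left) and the 15 with the largest rises (right), black points for DMSO and orange for I-BRD9. All 3 libraries of DIO3 lie near 0.1 CPM with I-BRD9, while the rises start from low levels in DMSO and reach at most the level of TUBB3 near 304 CPM.

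Among the rises with the largest fold stood a brake on the cell cycle, histone genes and a nuclear RNA. CDKN1C (ENSG00000129757, chromosome 11, 2883213 to 2885773, minus strand), an inhibitor of cyclin-dependent kinases that is imprinted in humans, had 13.1, 8.92 and 11.8 CPM with DMSO and 95.2, 98.6 and 103 CPM with I-BRD9. Every I-BRD9 library was several times as high as every DMSO library (log2 fold change 3.14 ± 0.11, adjusted p = 2.57e-15, a fold of 8.82). The histone genes H4C14, with 2.48, 3.61 and 0 CPM with DMSO and 19.6, 19.9 and 21 CPM with I-BRD9, and H4C15, with 2.01, 2.76 and 3.67 CPM with DMSO and 23.9, 26.1 and 25.2 CPM with I-BRD9, are near-identical copies with shared reads, and they rose by 3.27 ± 0.69 and 3.15 ± 0.21 on the log2 scale. H2BC5 (2.81) and H2BC21 (2.62), histone H2B genes that can be polyadenylated, rose with them. The libraries count polyadenylated transcripts, so values of histone genes here and below cover that fraction only. NEAT1 (ENSG00000245532, chromosome 11, 65422774 to 65445540, plus strand), the RNA scaffold of paraspeckles, had 27.6, 41.4 and 45.4 CPM with DMSO and 235, 251 and 260.1 CPM with I-BRD9 (log2 fold change 2.7 ± 0.29, adjusted p = 0.000115). No DMSO library came near the I-BRD9 libraries in these genes.

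DUSP1, a phosphatase that switches off MAP kinases, rose from 3.43 ± 0.966 to 19.1 ± 2.25 CPM (log2 fold change 2.47 ± 0.23, adjusted p = 1.92e-08). TUBB3, a beta-tubulin best known from neurons that was also present in this line with DMSO, had 71.5, 82.1 and 61.7 CPM with DMSO and 327, 294 and 291 CPM with I-BRD9 (log2 fold change 2.08 ± 0.10, adjusted p = 5.11e-13), with shared reads. KIF1A, a motor for axonal transport, rose by 2.34 ± 0.20 and WIPI1, a phosphoinositide-binding autophagy protein, by 2.20 ± 0.23 on the log2 scale. The remaining leading rises were BEX5 (2.24), YPEL1 (2.19), CNFN (2.18), ARHGAP27 (2.15) and TST (2.07), a mitochondrial sulfurtransferase, each from a low level with DMSO.

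Ranked by the change in CPM, other genes led. MALAT1 (ENSG00000251562, chromosome 11, 65497688 to 65506516, plus strand), a nuclear RNA of nuclear speckles, had 1772, 2038 and 2461 CPM with DMSO and 6867, 7162 and 8193 CPM with I-BRD9 (log2 fold change 1.83 ± 0.15, adjusted p = 6.5e-07), and every I-BRD9 library lay above every DMSO library. The simple epithelial keratins rose together: KRT18 from 1368 ± 89.9 to 3113 ± 188 CPM (1.19 ± 0.09 on the log2 scale), KRT8 from 449 ± 46.5 to 1052 ± 124 CPM (1.23 ± 0.09) and KRT19 from 203 ± 5.63 to 747 ± 28.1 CPM (1.88 ± 0.07). KRT8 and KRT18 lie next to each other on chromosome 12. FTH1, the ferritin heavy chain, rose from 2229 ± 146 to 3737 ± 171 CPM (log2 fold change 0.75 ± 0.08, adjusted p = 3.2e-07), and the light chain gene FTL by 1.33 ± 0.08 on the log2 scale. ID2, an inhibitor of basic helix-loop-helix factors, had 452, 427 and 418 CPM with DMSO and 1402, 1472 and 1383 CPM with I-BRD9 (log2 fold change 1.71 ± 0.08, adjusted p = 1.49e-13), with no overlap between groups.

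BASP1, a membrane protein of growing processes and a transcriptional cofactor, went from 505 ± 20.3 to 1190.0 ± 39.2 CPM. ACTG1, cytoplasmic gamma-actin (0.53), PABPC1, the poly(A)-binding protein (0.30), and TAGLN2, a transgelin (0.56), completed the 10 largest gains in CPM. The largest losses in CPM were those of HSP90AB1, the constitutive cytosolic chaperone (from 7481 ± 288 to 6014 ± 227 CPM, −0.31 on the log2 scale), the mitochondrial ATP synthase gene MT-ATP6 (−0.39), the tubulin gene TUBA1B (−0.63), and L1TD1, an RNA-binding protein of pluripotent cells (from 2284 ± 53.1 to 1293 ± 77.8 CPM, −0.82). They were followed by BCYRN1, a neuronal small RNA (−0.68), POU5F1B, a retrocopy that shares reads with POU5F1 (−1.08), the tubulin gene TUBB (−0.53) and the transmembrane semaphorin gene SEMA6A (−0.86). IGF1 (ENSG00000017427, chromosome 12, 102395874 to 102481744, minus strand), insulin-like growth factor 1, had 880.2, 841 and 906 CPM with DMSO and 193, 208 and 223 CPM with I-BRD9 (log2 fold change −2.07 ± 0.10, adjusted p = 2.52e-12). The imprinted RNA H19 (ENSG00000130600, chromosome 11, 1995176 to 2001470, minus strand) had 732, 825 and 845 CPM with DMSO and 149, 163 and 166 CPM with I-BRD9 (log2 fold change −2.33 ± 0.09, adjusted p = 1.19e-14), and in both genes each I-BRD9 library lay far below the lowest DMSO library.

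Pluripotency genes fell as a group. Of the 28 tested, 19 fell and none rose (called by edgeR; 16.5% and 15.3% of all genes did), with a median log2 fold change of −1.37. With the member that had no count in 1 group set to its bound, and the 3 whose groups both had at most 3 counts left out, the median was −1.23. Besides NANOG, FGF4, VENTX and GDF3, NODAL (−2.96) and its co-receptor TDGF1 (−2.86) fell, as did OTX2 (−2.76), a factor of the primed state. POU5F1, whose retrocopies share its reads, went from 749, 643 and 693 to 309, 327 and 333 CPM (log2 fold change −1.11 ± 0.08, adjusted p = 7.57e-10). SOX2 fell from its low level to 3.96, 7.33 and 6.96 CPM (log2 fold change −1.51 ± 0.16, adjusted p = 1.99e-07). DPPA2 (−0.12) and TRIM71 (−0.04) were among the 9 members that did not pass.

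The factors that define the seminoma state did not move alike. In the list for seminoma and primordial germ cells 15 of 21 genes fell (71.4%, against 16.5% of all genes) and KIT rose (4.76%, against 15.3%). The median was −0.62 (−1.0 without the member at or under the floor in both groups). SOX17 had 198, 195 and 185 CPM with DMSO and 44.1, 48.9 and 43.0 CPM with I-BRD9 (log2 fold change −2.09 ± 0.10, adjusted p = 1.02e-12), and PRDM1, the repressor that partners it in germ cell specification, had 32.7, 33.3 and 32.4 CPM with DMSO and 6.92, 5.65 and 6.03 CPM with I-BRD9 (log2 fold change −2.40 ± 0.24, adjusted p = 2.16e-07). In both genes the highest I-BRD9 library lay well below the lowest DMSO library. TFAP2C, the third factor of that circuit, had 983, 1472 and 1169 CPM with DMSO and 1119, 933 and 931 CPM with I-BRD9; the groups overlapped and the difference did not pass (log2 fold change −0.28 ± 0.20, adjusted p = 0.342). PRDM14, a germ cell repressor, fell by 2.99 on the log2 scale, TCL1A (−1.49) and ALPL (−1.53), an alkaline phosphatase, fell too, and PRAME, a cancer-testis antigen, fell by less (−0.51). KIT, the receptor for stem cell factor, had 26.1, 26.7 and 26.7 CPM with DMSO and 45.7, 49.9 and 52.5 CPM with I-BRD9 and was higher in every I-BRD9 library (log2 fold change 0.90 ± 0.16, adjusted p = 0.000143).

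Transcripts that mark growth factor signalling through ERK fell steeply. Of the 16 ERK feedback genes 10 fell (62.5%, against 16.5% of all genes) and 2 rose (12.5%, against 15.3%), with a median of −1.10. The ETS factor genes led, with ETV1 at 8.14, 6.90 and 8.08 CPM with DMSO and 0.791, 0.360 and 0.232 CPM with I-BRD9, followed by ETV4 and ETV5 as above. SPRY4, a feedback inhibitor of receptor tyrosine kinase signalling, had 9.21, 9.76 and 8.94 CPM with DMSO and 1.09, 0.721 and 0.696 CPM with I-BRD9 (log2 fold change −3.44 ± 0.24, adjusted p = 2.24e-10). DUSP4 (−2.38) and DUSP6 (−2.22), phosphatases of ERK, and SPRY1 (−1.61) and SPRY2 (−1.46) fell as well. In ETV1 and SPRY4 the I-BRD9 libraries lay near the floor and far from the DMSO libraries. The members that rose were PHLDA1 (0.37) and IL11 (1.36). The call of PHLDA1 ended without DMSO replicate 1, DMSO replicate 3 or I-BRD9 replicate 1 (adjusted p 0.053 to 0.125), and that of IL11 without DMSO replicate 2 (adjusted p = 0.0515).

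Immediate early genes, which are also switched on through ERK and stress kinases, moved the other way. Of 20 tested, 13 rose (65.0%, against 15.3% of all genes) and 2 fell (10.0%, against 16.5%), with a median of 0.86. JUN, a subunit of AP-1, had 31.8, 36.0 and 31.3 CPM with DMSO and 105, 103 and 102 CPM with I-BRD9 (log2 fold change 1.64 ± 0.10, adjusted p = 1.92e-11), and every I-BRD9 library was higher than every DMSO library. FOSB (1.40), FOS (1.35), KLF6 (1.32), JUNB (1.22) and EGR1 (1.05) rose beside DUSP1. The members that fell were KLF4 (−2.38), which is also a pluripotency factor, and IER3 (−1.10).

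BMP, TGF-beta and NODAL signalling genes held 9 rises and 2 falls among 22 tested (median 0.38, and 0.31 with members set to their bound). These are shares of 40.9% and 9.09%, against 15.3% and 16.5% of all genes. ID2 led in level, and TGFB1 (from 0.550 ± 0.652 to 2.43 ± 0.395 CPM), FSTL3 (1.49), SMAD7 (0.67) and ID4 (0.61) rose. The ligand gene BMP7 (−0.95) and the activin antagonist FST (−1.04) fell, and ID1 (0.26) and ID3 (−0.15) did not pass. Lineage genes were split, with 31.6% of trophoblast and mesoderm genes called higher and 42.1% lower, against 15.3% and 16.5% of all genes. Of 19 trophoblast and mesoderm genes 6 rose, among them HAND1 (194, 196 and 160.4 CPM with DMSO and 569.8, 567 and 503 CPM with I-BRD9; log2 fold change 1.58 ± 0.09, adjusted p = 6.87e-12), GATA2 (1.27) and TBX3 (0.95). In the same list 8 fell (5 without I-BRD9 replicate 2), among them CGA, the alpha subunit of gonadotropins (−3.10, with 11 counts over the I-BRD9 libraries and an adjusted p of 0.0878 with DESeq2), HAND2 (−1.96) and KRT7 (−1.22). HAND1 with I-BRD9 stood above every DMSO library in all 3 libraries.

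Genes of the mesenchymal state went in both directions, with 6 rises and 8 falls among 29 (median near 0). These are shares of 20.7% and 27.6%, against 15.3% and 16.5% of all genes. VIM, vimentin, had 99.3, 98 and 84.4 CPM with DMSO and 18.6, 19.5 and 15.2 CPM with I-BRD9 (log2 fold change −2.40 ± 0.10, adjusted p = 2.8e-14), and CDH2, N-cadherin, had 213, 212 and 202 CPM with DMSO and 58.9, 55.3 and 54.4 CPM with I-BRD9 (log2 fold change −1.89 ± 0.09, adjusted p = 3.73e-13). In both the groups lay far apart. MMP2 (−1.89) and FN1 (−1.06) also fell, while COL5A1 (1.24) and TWIST1 (1.14) rose. The fibroblast markers THY1 (−3.65) and COL1A2 (−0.69) fell with them; THY1 was also present at 220.1 CPM in 2102 EP with DMSO. The part of other cells in these values was not tested.

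**Figure D3:**
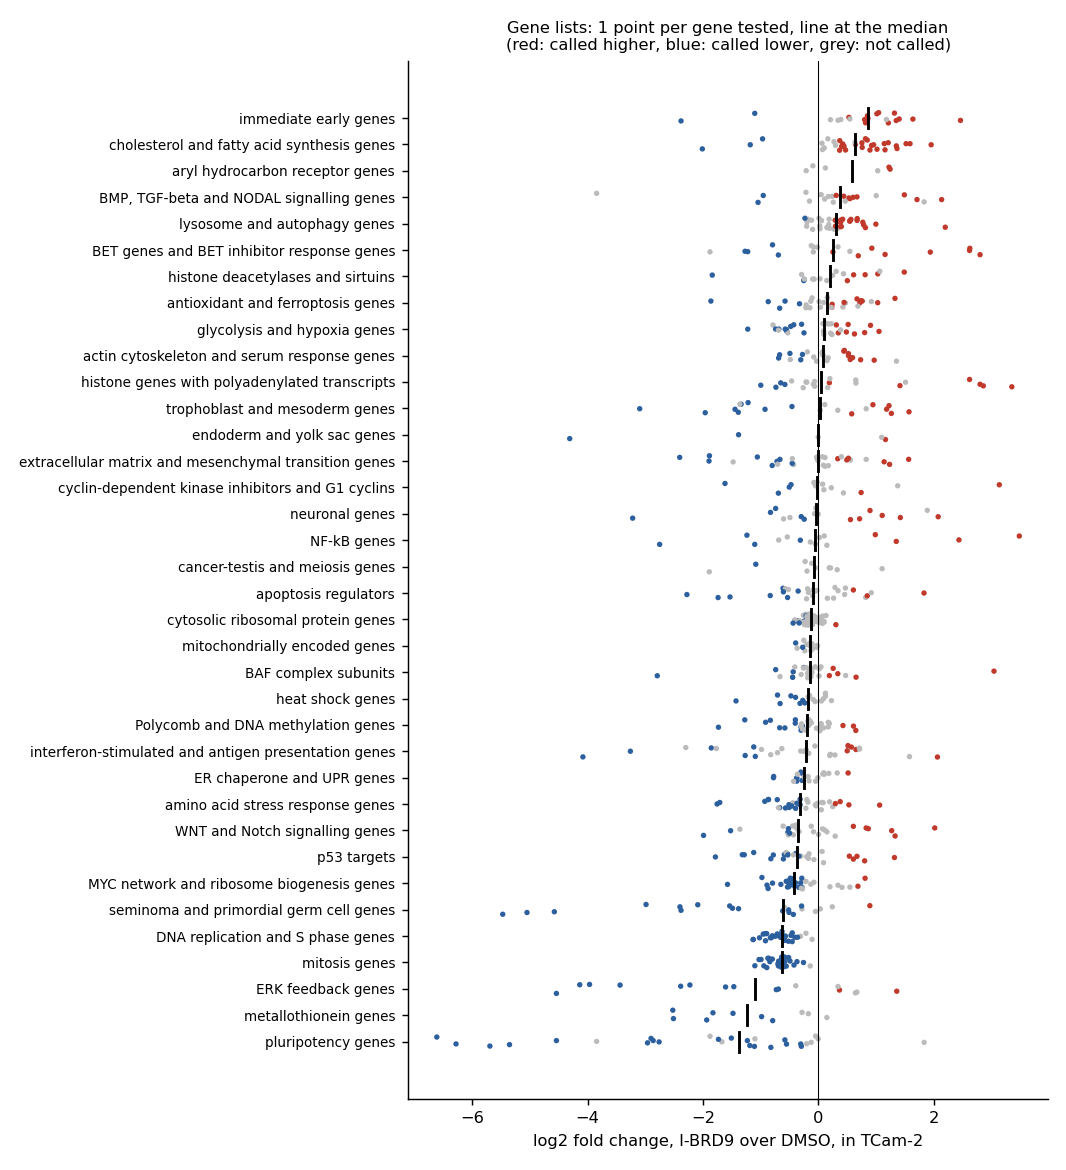
Log2 fold change of every tested member of 36 gene lists in TCam-2, 1 point per gene, with a black line at the list's median. Points of the mitosis and DNA replication lists sit close together below 0, pluripotency and ERK feedback genes spread far to the left, and cholesterol and immediate early genes lie mostly to the right.

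Most genes of the cell cycle lists fell. Called lower were 96.8% of the mitosis list and 90.6% of the DNA replication list, against 16.5% of all genes (15.3% were called higher). In the highest of the 5 level classes 30.4% of genes were called lower, and these lists were not matched for level. Of 31 mitosis genes 30 fell and none rose (median −0.63), from −1.10 for UBE2C to −0.25 for PTTG1 among those called, the latter losing its call without DMSO replicate 1 (adjusted p = 0.0568); CDC25B (−0.14) did not pass. PLK1, a kinase that drives mitotic entry, had 177, 176 and 163 CPM with DMSO and 78.5, 88.7 and 86.6 CPM with I-BRD9 (log2 fold change −1.03 ± 0.09, adjusted p = 5.44e-09). UBE2C, a ubiquitin-conjugating enzyme of the anaphase-promoting complex, had 215, 185 and 178 CPM with DMSO and 94.9, 89.4 and 85.4 CPM with I-BRD9 (log2 fold change −1.10 ± 0.09, adjusted p = 3.48e-09), and AURKA, Aurora kinase A, had 236, 251 and 249 CPM with DMSO and 131, 123 and 117 CPM with I-BRD9 (log2 fold change −0.99 ± 0.08, adjusted p = 2.05e-09). In all 31 members every I-BRD9 library lay on the same side of every DMSO library, against 45.7% of all genes. Of 32 DNA replication and S phase genes 29 fell and none rose (median −0.63). GINS3, a subunit of the replicative helicase, fell from 22.4 ± 1.20 to 10.2 ± 0.861 CPM (log2 fold change −1.13 ± 0.15, adjusted p = 4.01e-06) and MCM5 from 81.0 ± 6.0 to 42.8 ± 3.89 CPM (log2 fold change −0.92 ± 0.11, adjusted p = 7.39e-07). E2F1 (−0.70), PCNA (−0.58) and RRM2 (−0.65) fell, and MCM3 (−0.11), PRIM1 (−0.21) and RFC2 (−0.31) did not pass.

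Promoters of mitosis and replication genes are known to carry short shared motifs, and the windows of these members are shown because the 2 lists moved together. RefSeq promoters (GRCh38.p14, from 250 bases before to 50 after the gene start) were matched for 11235 of the 15614 genes tested (71.95%). TTTGAA, the core of the element called CHR in mitotic promoters, was found on either strand in 14 of 25 mitosis promoters (56.0%) and in 1079 of 11235 overall (9.60%). CCAAT, the box bound by the factor NF-Y, was found in 20 of 25 (80.0%) and in 37.0% of all. TTTGGCGC, a form of the E2F site, was found in 6 of 27 replication promoters (22.2%) and in 1.10% of all. Motifs were picked after the gene values were seen, and a match is a description of these letters and not a measured site. Capitals mark TTTGAA and CCAAT in the mitosis genes and TTTGGCGC in the replication genes, on either strand, and positions count from the gene start.
PLK1, chr16:23678808-23678873, plus strand, from −81 to −16: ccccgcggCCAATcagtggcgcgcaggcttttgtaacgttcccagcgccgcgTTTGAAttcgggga
CDC20, chr1:43358873-43358938, plus strand, from −108 to −43: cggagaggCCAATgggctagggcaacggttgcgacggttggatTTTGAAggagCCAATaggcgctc
BUB1B, chr15:40161038-40161059, plus strand, from −31 to −10: ccgttaaaTTTGAAacttggcg
TOP2A, chr17:40417937-40418146, minus strand, from −250 to −41: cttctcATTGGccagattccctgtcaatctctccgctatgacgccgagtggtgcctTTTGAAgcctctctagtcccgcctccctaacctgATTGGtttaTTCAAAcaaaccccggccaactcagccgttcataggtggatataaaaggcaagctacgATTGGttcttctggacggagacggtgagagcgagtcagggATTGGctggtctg
E2F1, chr20:33686386-33686425, minus strand, from −40 to −1: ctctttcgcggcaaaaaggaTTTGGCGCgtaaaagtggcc
MCM6, chr2:135876506-135876615, minus strand, from −172 to −63: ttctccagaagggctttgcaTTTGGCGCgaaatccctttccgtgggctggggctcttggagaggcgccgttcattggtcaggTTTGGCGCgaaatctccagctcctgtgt
POLA1, chrX:24693761-24693808, plus strand, from −157 to −110: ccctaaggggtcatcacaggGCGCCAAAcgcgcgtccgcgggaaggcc
The genes printed fell by 1.03 (PLK1), 0.68 (CDC20), 0.94 (BUB1B), 0.70 (TOP2A), 0.70 (E2F1), 0.52 (MCM6) and 0.45 (POLA1) on the log2 scale, all called by edgeR. The call of MCM6 ended without DMSO replicate 1, DMSO replicate 2, I-BRD9 replicate 2 or I-BRD9 replicate 3 (adjusted p 0.0605 to 0.0867), and that of POLA1 without DMSO replicate 2 or I-BRD9 replicate 3 (adjusted p 0.0716 to 0.0778).

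Regulators of the G1 phase were mixed. Of 15 tested, CDKN1C and CDKN2D rose (13.3%, against 15.3% of all genes) and CCND2, CCND1, CDK4 and CDK2 fell (26.7%, against 16.5%). The call of CDKN2D (0.74) ended without DMSO replicate 1, DMSO replicate 2, DMSO replicate 3, I-BRD9 replicate 1 or I-BRD9 replicate 3 (adjusted p 0.0541 to 0.166) and with a block by library code (adjusted p = 0.0559). CCND2, cyclin D2, had 675, 706 and 779.5 CPM with DMSO and 228, 216 and 261 CPM with I-BRD9 (log2 fold change −1.62 ± 0.08, adjusted p = 1.14e-12), a loss seen in every I-BRD9 library. CDKN1A, the p21 inhibitor, did not pass (−0.07), nor did CDKN1B (−0.07). Of 26 p53 targets 12 fell (46.2%, against 16.5% of all genes) and 5 rose (19.2%, against 15.3%), with a median of −0.36. GDF15 (−1.78), AEN (−1.32) and PHLDA3 (−1.28) fell with MDM2 (−0.59), and TP53INP1 (1.32), BTG2, TP53I3, BBC3 and CCNG1 rose.

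Most genes of the list for MYC and ribosome biogenesis fell. Of 35 MYC network and ribosome biogenesis genes 24 fell (68.6%, against 16.5% of all genes), with a median of −0.41. Those that rose (5.71%, against 15.3%), MXD4 (0.81) and MXI1 (0.69), encode antagonists of MYC. In the highest of the 5 level classes 30.4% of genes were called lower, and this list was not matched for level. MYCL fell from 11.2 ± 2.66 to 3.75 ± 0.354 CPM (log2 fold change −1.57 ± 0.22, adjusted p = 7.64e-06) and MYCN by 0.79 on the log2 scale, and MYC itself did not pass (log2 fold change 0.55 ± 0.28, adjusted p = 0.145). NOP16, a nucleolar assembly factor, had 87.6, 87.0 and 96.2 CPM with DMSO and 43.6, 46.7 and 56.1 CPM with I-BRD9, and WDR74, another, 76.4, 69.6 and 66.7 CPM with DMSO and 33.2, 41.8 and 33.3 CPM with I-BRD9. In both genes every I-BRD9 library was lower. CACGTG, the E-box that MYC and related factors bind, was found in 10 of 29 promoters of this list (34.5%), against 9.93% of all. Among all matched promoters of called genes it was found in 11.1% of those called lower and 9.76% of those called higher. Of 69 cytosolic ribosomal protein genes 7 fell (10.1%) and RPL28 rose, with a median of −0.13; both shares were below those of all genes (16.5% lower and 15.3% higher). That number of falls was 4 to 15 across the alternatives that moved it by over 1.5 times, which include leaving out DMSO replicate 2 or any I-BRD9 replicate.

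Symbol families, meaning genes that share the letters that precede a digit, group the genes without preset lists. Among 239 families with at least 8 tested genes, the highest shares called lower were in CCT, with 7 of 8 (87.5%), RRP with 6 of 9 (66.7%), and EXOSC, MCM and UTP with 7 of 11 each (63.6%). PSMC followed with 6 of 10 (60.0%), and 16.5% of all genes were called lower. CCT genes encode the cytosolic chaperonin that folds actin and tubulin: CCT5 had 664, 655 and 642 CPM with DMSO and 449, 469 and 456 CPM with I-BRD9 (log2 fold change −0.51 ± 0.07, adjusted p = 8.74e-06), and the testis form CCT6B was the member that rose (1.97). RRP and UTP genes encode ribosomal RNA processing factors, of which RRP9 (−0.87) and UTP4 (−0.66) fell most. EXOSC genes encode the RNA exosome, with EXOSC5 (−0.83) and EXOSC7 (−0.59) in front. PSMC genes encode the ATPases at the base of the proteasome, of which PSMC1, PSMC2, PSMC3, PSMC4 and PSMC6 fell, by at most 0.51 on the log2 scale, with PSMC5 (−0.15) not passing. The family name also took in PSMC3IP, a recombination factor, and pseudogenes. Calls ended for PSMC2 without any 1 of the 6 libraries (adjusted p 0.0617 to 0.147), for PSMC3 without DMSO replicate 2, I-BRD9 replicate 1 or I-BRD9 replicate 3 (adjusted p 0.05 to 0.0774) and for PSMC3IP without DMSO replicate 2, DMSO replicate 3 or I-BRD9 replicate 1 (adjusted p 0.0604 to 0.0862).

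The families with the highest shares called higher were STX with 9 of 14 (64.3%), DHRS with 7 of 11 (63.6%), MYO and GATA with 10 of 16 and 5 of 8 (both 62.5%), CYP with 7 of 15 (46.7%) and MARCHF with 4 of 9 (44.4%). Against these, 15.3% of all genes were called higher. The place of MARCHF rests on MARCHF1, whose call ended without any 1 of the 6 libraries (adjusted p 0.0664 to 0.0902); with 3 of 9 the family would stand below MAN (40.0%) and IFT (38.9%). STX genes encode syntaxins, the membrane fusion proteins of vesicle traffic. STX3 had 27.1, 28.7 and 22.2 CPM with DMSO and 60.5, 46.4 and 46.5 CPM with I-BRD9 (log2 fold change 0.98 ± 0.14, adjusted p = 1.36e-05), and STX17, which acts in the fusion of autophagosomes with lysosomes, had 27.9, 30.8 and 33.2 CPM with DMSO and 51.8, 47.9 and 47.9 CPM with I-BRD9 (log2 fold change 0.69 ± 0.10, adjusted p = 1.12e-05). None of this family was called lower. DHRS genes encode short-chain dehydrogenases, with DHRS12 (1.73), DHRS7 (1.0) and DHRS1 (0.70) among the rises, and 1 of the 7 was the antisense RNA DHRS4-AS1 (1.27). MYO genes encode myosins that move on actin, with 10 rises such as MYO5B (1.18), MYO18A (0.81) and MYO1C (0.74), and 3 falls, of MYO10, MYO19 and MYO5C, the last losing its call without DMSO replicate 3, I-BRD9 replicate 2 or I-BRD9 replicate 3 (adjusted p 0.102 to 0.274). In the GATA family GATA5 rose from 0.230 ± 0.117 to 2.86 ± 0.174 CPM and GATA2 from 18.3 ± 2.19 to 44.1 ± 3.15 CPM, and GATA4 fell (−1.38). This family was formed by symbol alone, so its 8 members can include genes other than the transcription factors, such as antisense RNAs. CYP46A1 (2.37), CYP7B1 (1.79) and CYP1B1 (1.23) were among the cytochromes that rose, and CYP46A1 and CYP7B1 act on cholesterol and its derivatives.

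**Figure D4:**
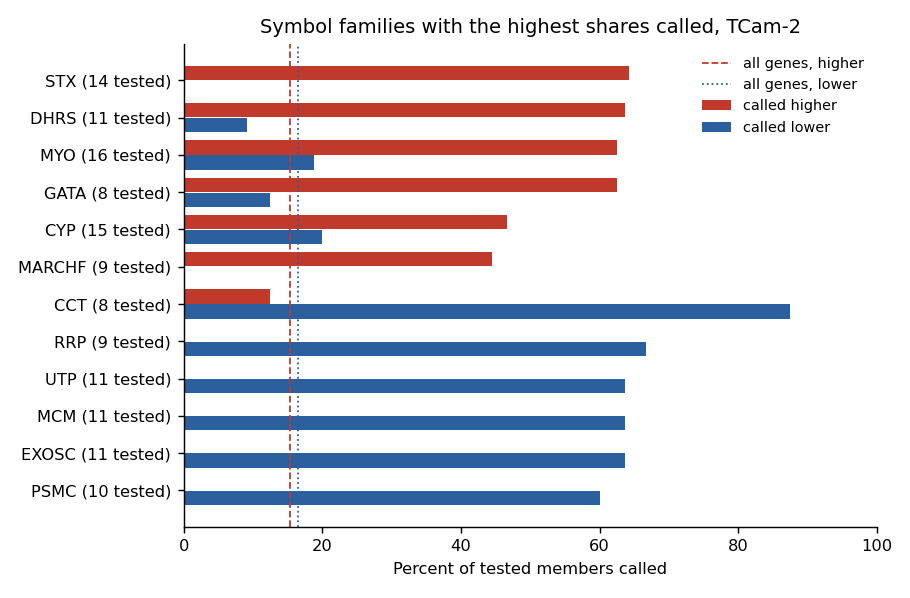
Percent of tested members called higher (red bars) and lower (blue bars) for the 12 symbol families with the highest shares, with vertical lines at 15.3% (dashed, all genes higher) and 16.5% (dotted, all genes lower). The 6 lower families have no or 1 member called higher.

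Most genes of cholesterol and fatty acid synthesis rose: 24 of 34 did (70.6%, against 15.3% of all genes) and 3 fell (8.82%, against 16.5%), with a median of 0.64. FADS1, a fatty acid desaturase, had 17.7, 22.1 and 21.2 CPM with DMSO and 74.7, 78.8 and 84.1 CPM with I-BRD9 (log2 fold change 1.96 ± 0.12, adjusted p = 2.6e-11). TM7SF2, a sterol reductase, had 29.4, 29.9 and 28.7 CPM with DMSO and 92.5, 80.4 and 92.4 CPM with I-BRD9 (log2 fold change 1.59 ± 0.11, adjusted p = 1.11e-10), and INSIG1, which retains the sterol sensor in the endoplasmic reticulum, had 15.9, 15.9 and 14.6 CPM with DMSO and 45.4, 45.6 and 42.7 CPM with I-BRD9 (log2 fold change 1.52 ± 0.11, adjusted p = 4.7e-10). In these genes the lowest I-BRD9 library was over the highest DMSO library by a wide margin. SCD (1.37), LSS (1.35) and SQLE (1.16) rose as well. Members that fell included the elongase gene ELOVL6 (−1.18) and SREBF1, the lipogenic transcription factor (log2 fold change −0.96 ± 0.22, adjusted p = 0.00166). CCAAT was present in 17 of 26 promoters of this list (65.4%), against 37.0% of all. Among all matched promoters of called genes it was present in 36.7% of those called higher and 39.8% of those called lower.

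Lysosome and autophagy genes rose in 18 of 34 cases (52.9%, against 15.3% of all genes), with a median of 0.32, and 1 fell, CD63 (−0.23). The call of CD63 ended without DMSO replicate 2, DMSO replicate 3 or I-BRD9 replicate 2 (adjusted p 0.083 to 0.121). SQSTM1, the autophagy receptor p62, had 77.7, 87.0 and 68.3 CPM with DMSO and 142, 140.3 and 129.7 CPM with I-BRD9 (log2 fold change 0.82 ± 0.09, adjusted p = 3.71e-07), and GRN, progranulin, had 75.8, 87.7 and 80.3 CPM with DMSO and 146, 148 and 127 CPM with I-BRD9 (log2 fold change 0.79 ± 0.10, adjusted p = 1.92e-06). MAP1LC3B, the LC3 protein of autophagosome membranes, rose from 19.6 ± 0.645 to 39.2 ± 6.49 CPM beside WIPI1. Cathepsins CTSB (−0.12), CTSD (0.03) and CTSL (0.15) did not pass. CACGTG is also the core of the element bound by TFEB in lysosomal promoters. It was found in 8 of 24 lysosome promoters (33.3%), against 9.93% of all. Windows of 3 genes that rose are shown, with the motif in capitals. They were taken from called members that hold the motif, so they cannot link it to the rise.
GAA, chr17:80101485-80101575, plus strand, from −96 to −6: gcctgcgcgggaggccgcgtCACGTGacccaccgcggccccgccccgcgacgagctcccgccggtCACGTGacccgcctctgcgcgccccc
NEU1, chr6:31862922-31862967, minus strand, from −146 to −101: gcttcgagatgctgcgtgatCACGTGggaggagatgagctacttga
ATP6V0D1, chr16:67481191-67481236, minus strand, from −79 to −34: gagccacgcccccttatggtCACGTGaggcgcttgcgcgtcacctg
GAA, the acid alpha-glucosidase, rose by 0.67 ± 0.18, NEU1, the sialidase, by 0.57 ± 0.11 and ATP6V0D1, a proton pump subunit, by 0.39 ± 0.10 on the log2 scale. TFEB did not pass (0.06).

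Metallothioneins are small metal-binding proteins, and their MT1 genes, in a cluster on chromosome 16, fell side by side. All 7 MT1 genes of a run from 56625475 to 56684196 (MT1E, MT1M, MT1A, MT1F, MT1G, MT1H and MT1X) were lower, the longest run of neighbouring coding genes called in the same direction. MT1G had 768, 799 and 744 CPM with DMSO and 195, 205 and 206 CPM with I-BRD9 (log2 fold change −1.93 ± 0.08, adjusted p = 1.19e-14) and MT1X had 24.7, 21.4 and 23.8 CPM with DMSO and 4.94, 2.88 and 4.29 CPM with I-BRD9 (log2 fold change −2.51 ± 0.22, adjusted p = 1.25e-08), with no overlap between groups. MT1M fell by 2.52 and MT1E by 1.82 on the log2 scale. The copies are near-identical and can share reads. MT2A (−0.17), the zinc exporter SLC30A1 (−0.28) and the metal-sensing factor MTF1 (0.15) did not pass. Metal response elements have the core TGCGCNC or TGCACNC, and the former was found in 3 of 5 (60.0%) and the latter in 4 of 5 matched promoters of this list (80.0%), against 31.7% and 11.5% of all. Capitals mark both forms on either strand in 2 members.
MT1X, chr16:56682312-56682431, plus strand, from −158 to −39: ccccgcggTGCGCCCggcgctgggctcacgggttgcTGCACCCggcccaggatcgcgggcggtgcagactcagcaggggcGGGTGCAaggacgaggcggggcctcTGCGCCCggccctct
MT1H, chr16:56669728-56669813, plus strand, from −86 to −1: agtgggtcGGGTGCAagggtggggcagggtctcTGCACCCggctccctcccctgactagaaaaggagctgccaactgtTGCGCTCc
MT1H fell by 1.48 on the log2 scale (adjusted p = 0.0002).

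Among chromatin genes a few large changes stood beside many small ones. Of 30 BAF complex subunits 5 rose and 5 fell (15.3% and 16.5% of all genes). BCL11B, a zinc finger subunit found in few tissues, had 106, 104 and 104 CPM with DMSO and 15.3, 16.6 and 13.6 CPM with I-BRD9 (log2 fold change −2.79 ± 0.12, adjusted p = 2.8e-14), and SMARCD3, a tissue-specific subunit, had 0.354, 0.106 and 0.245 CPM with DMSO and 2.37, 1.68 and 1.97 CPM with I-BRD9 (log2 fold change 3.05 ± 0.52, adjusted p = 8.57e-05). These stood apart from the rest, and SMARCA2, the alternative ATPase, rose from 49.6 ± 3.11 to 78.2 ± 5.77 CPM. The non-canonical subunits BICRA (−0.13) and BICRAL (0.48) did not pass, nor did SS18 (−0.26), which is found in the canonical complex as well. DPF1 (−0.74), BCL7A (−0.44) and ARID1A (−0.43) fell, and PBRM1 (0.26) rose but lost its call without DMSO replicate 1, I-BRD9 replicate 1 or I-BRD9 replicate 2 (adjusted p 0.0623 to 0.0713). The remaining calls, higher for SMARCE1 and BCL11A and lower for ARID1B, each ended with either block (by replicate number or by library code) and without each of at least 5 of the 6 libraries in turn (adjusted p up to 0.226, 0.2 and 0.162). The number of rises was 2 or 3 without DMSO replicate 1 or 3, without I-BRD9 replicate 1 or 2, with either block or with no filter on low counts.

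BET proteins are other bromodomain readers of acetylated histones, and a list of their genes and of known responders to BET inhibitors was also counted. Of 19 genes 8 rose (42.1%, against 15.3% of all genes) and 4 fell (21.1%, against 16.5%). The median was 0.25, and 0.30 without the member at the floor. HEXIM1, an inhibitor of transcription elongation, had 39.3, 32.8 and 41.3 CPM with DMSO and 74.6, 72.6 and 68.5 CPM with I-BRD9 (log2 fold change 0.93 ± 0.10, adjusted p = 1.35e-07), TXNIP rose from 5.40 ± 0.612 to 20.8 ± 3.06 CPM, and SERPINI1 (1.16), ZCCHC24 (2.63) and BRD2 (0.70) rose with the 2 H2B genes above. ZMYND8 (−1.27), E2F2 (−1.22), MYCN (−0.79) and CCND1 (−0.69) fell, and MYC (0.55) and FOSL1 (0.34) did not pass. Of 22 histone genes with polyadenylated transcripts 6 rose (27.3%, against 15.3% of all genes) and 4 fell (18.2%, near the 16.5% of all genes). H2AC6 rose from 1.27 ± 0.188 to 9.34 ± 0.987 CPM, and H2BC8, with 3 counts over the DMSO libraries, was higher with I-BRD9 by a ratio of 11.6 (95% counting interval 3.65 to 58.7). H4C3 (−1.0), H1-2 (−0.73), H2AZ1 (−0.65) and CENPA (−0.58) fell; the call of CENPA ended without DMSO replicate 3, I-BRD9 replicate 1 or I-BRD9 replicate 2 (adjusted p 0.0573 to 0.0795).

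Of 32 Polycomb and DNA methylation genes 11 fell (34.4%, against 16.5% of all genes) and 3 rose (9.38%, against 15.3%), with a median of −0.19. DNMT3L, the cofactor of de novo methylation in germ cells, had 12.7, 15.0 and 14.2 CPM with DMSO and 5.93, 3.84 and 2.67 CPM with I-BRD9 (log2 fold change −1.73 ± 0.21, adjusted p = 8.93e-07). PHF19, a Polycomb-like protein, fell from 41.3 ± 0.265 to 17.1 ± 1.68 CPM, and TET2, which oxidises methylated cytosine, from 30.1 ± 1.17 to 16 ± 0.930 CPM. RING1 (0.65), EZH1 (0.61) and CBX6 (0.43) rose. The call of EZH1 ended without DMSO replicate 1 or DMSO replicate 2 (adjusted p 0.0558 to 0.0607) and that of CBX6 without DMSO replicate 1 or I-BRD9 replicate 3 (adjusted p 0.0563 to 0.0619); without DMSO replicate 1 the number of rises was 1. Among 18 histone deacetylases and sirtuins HDAC9 fell from 12.8 ± 1.19 to 3.57 ± 0.498 CPM and HDAC11 (1.49) and HDAC5 (1.03) rose.

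Stress pathways with amino acid or protein folding inputs leaned lower. Of 32 amino acid stress response genes 15 fell (46.9%) and 4 rose (12.5%), against 16.5% and 15.3% of all genes, with a median of −0.31. In the highest of the 5 level classes 30.4% of genes were called lower, and these lists were not matched for level. WARS1, tryptophanyl-tRNA synthetase, had 187, 174 and 163 CPM with DMSO and 51.6, 52.9 and 50.8 CPM with I-BRD9 (log2 fold change −1.75 ± 0.08, adjusted p = 1.56e-13), and STC2, stanniocalcin 2, had 82.3, 74.9 and 78.7 CPM with DMSO and 25.6, 23.9 and 22.6 CPM with I-BRD9 (log2 fold change −1.71 ± 0.11, adjusted p = 5.51e-11). SLC7A5, a transporter of large amino acids, moved against them, with 208, 222 and 195 CPM with DMSO and 447, 458 and 404 CPM with I-BRD9 (log2 fold change 1.07 ± 0.11, adjusted p = 8.35e-08). ATF4 (−0.05) and DDIT3 (−0.02), central factors of the pathway, did not pass. Of 21 genes for chaperones and the unfolded protein response of the endoplasmic reticulum 8 fell (38.1%), with XBP1 from 31.9 ± 2.13 to 18.6 ± 0.614 CPM, and SEL1L rose (0.52). Of 17 heat shock genes 8 fell (47.1%) and none rose. HSPB1, a small heat shock protein, had 169, 163 and 149 CPM with DMSO and 57.2, 60.3 and 61.8 CPM with I-BRD9 (log2 fold change −1.43 ± 0.08, adjusted p = 5e-12), while the inducible HSPA1A (0.05) did not pass.

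The largest falls among apoptosis regulators were in genes of the extrinsic death pathway. CASP8, the initiator caspase of death receptors, had 69.5, 83.6 and 96.1 CPM with DMSO and 14.4, 16.2 and 20.9 CPM with I-BRD9 (log2 fold change −2.28 ± 0.14, adjusted p = 1.84e-11). Its regulator CFLAR had 166, 190.1 and 174 CPM with DMSO and 49.9, 56.5 and 52.8 CPM with I-BRD9 (log2 fold change −1.74 ± 0.09, adjusted p = 1.48e-12), and CASP10 fell from 12.7 ± 2.42 to 4.40 ± 0.200 CPM. In all 3 genes each I-BRD9 library was well under the lowest DMSO library. BID, which links death receptors to mitochondria, fell by less (−0.83). Of 28 apoptosis regulators 8 fell (28.6%, against 16.5% of all genes), and 5 did so without DMSO replicate 3 or without I-BRD9 replicate 1. In the same list 3 rose (10.7%, against 15.3%), all with a BH3 domain only: BMF (1.84), BBC3 (0.61) and BCL2L11 (0.85). The call of BCL2L11 ended without DMSO replicate 2, DMSO replicate 3 or I-BRD9 replicate 1 (adjusted p 0.0821 to 0.0913).

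Interferon-stimulated and antigen presentation genes were called about as often as all genes: 5 of 29 rose (17.2%, against 15.3%) and 6 fell (20.7%, against 16.5%; 2 or 3 falls without DMSO replicate 2 or without I-BRD9 replicate 2). B2M, which encodes beta-2-microglobulin of the MHC class I complex, had 8.26, 7.43 and 6.37 CPM with DMSO and 31.1, 31.6 and 30.0 CPM with I-BRD9, a rise in every I-BRD9 library (log2 fold change 2.07 ± 0.12, adjusted p = 9.03e-12). IRF1 (0.65) and HLA-E (0.52) rose with it. HLA-E lost its call without DMSO replicate 1 (adjusted p = 0.0901). IFI16, a sensor of DNA, had 32.7, 35.0 and 38.6 CPM with DMSO and 3.96, 3.96 and 3.13 CPM with I-BRD9 (log2 fold change −3.26 ± 0.15, adjusted p = 2.27e-13), and IFITM3, a membrane protein that blocks virus entry, fell (−1.09). Among NF-kB genes TNF, with 3 counts over the DMSO libraries, was higher with I-BRD9 by a ratio of 12.5 (95% counting interval 3.98 to 63.3), and RELB (1.35) and REL (0.99) rose, while CCL2 (−2.75) and NFKB2 (−1.24) fell. Of the aryl hydrocarbon receptor targets CYP1B1 had 112, 119 and 114 CPM with DMSO and 281, 264 and 262 CPM with I-BRD9 (log2 fold change 1.23 ± 0.09, adjusted p = 9e-10) and TIPARP rose by 1.25 ± 0.20 on the log2 scale.

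Noncoding RNA genes were called in both directions. Of 570 genes annotated as lincRNA 47 rose (8.25%) and 64 fell (11.2%), and of 493 annotated as antisense 47 rose (9.53%) and 24 fell (4.87%), all lower shares than the 15.3% and 16.5% of all genes. The strand setting of the counting is not given, so reads of a gene and its antisense partner may have been mixed. Small nucleolar RNA genes held 5 rises (17.9%, close to the 15.3% of all genes) and no fall among 28 tested. Counts at SNORA12 rose from 1.93 ± 0.447 to 12.2 ± 0.951 CPM (log2 fold change 2.65 ± 0.28, adjusted p = 1.08e-07) and at the Cajal body RNA gene SCARNA22 from 9.05 ± 1.31 to 38.8 ± 7.49 CPM (log2 fold change 2.10 ± 0.17, adjusted p = 2.46e-09). The libraries count polyadenylated transcripts, so these counts need not come from the mature small RNAs, which was not tested. LINC01356 had 16.2, 21.9 and 16.8 CPM with DMSO and 0.593, 0.961 and 1.16 CPM with I-BRD9 (log2 fold change −4.34 ± 0.23, adjusted p = 1.91e-12), with each I-BRD9 library far below each DMSO library and with shared reads.

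The promoters of genes that changed at least 2-fold were described in the same RefSeq windows. Median GC content was 65.3% over all matched promoters, 68.3% in the genes called higher and 64.3% in those called lower. TATAAA was found in 69 of 531 promoters of genes that fell at least 2-fold (13.0%), in 7.65% of those that rose and in 5.69% of all. CCGGAAG, a form of the ETS site common in housekeeping promoters, was found in 5.46% and 7.65%, against 18.9% of all. Genes that passed a fold threshold differ in level from genes at large, so these shares carry no test.

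The response in TCam-2 shared more with that in 2102 EP than it opposed. Of the 2389 genes that rose in TCam-2, 1289 (54.0%) also rose in 2102 EP, 131 (5.48%) fell there and 969 (40.6%) were not called. Of the 2570 that fell, 1328 (51.7%) also fell, 142 (5.53%) rose and 1100 (42.8%) were not called. In 2102 EP 2837 genes (18.2%) rose and 2902 (18.6%) fell, so that the shared rises were 45.4% of its rises and the shared falls 45.8% of its falls. Log2 fold changes of the lines had a Pearson r of 0.389 and a Spearman rho of 0.468 over the 15614 genes, a description over genes that are not independent, with values from 1 fit. Each line has its own DMSO libraries.

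The difference of the effect itself (TCam-2 minus 2102 EP, an interaction term) was called for 2043 genes (13.1%), of which 921 were more positive and 1122 more negative in TCam-2. Among genes not called in 2102 EP, 227 of the 969 TCam-2 rises and 357 of the 1100 TCam-2 falls had a called difference, so most of the calls made in TCam-2 alone were not shown to differ between the lines. CXCL14 fell in TCam-2 as given above and went from 25.6 ± 2.02 to 43.2 ± 1.87 CPM (SD, n = 3) in 2102 EP, a difference of −5.06 ± 0.16, adjusted p = 4.05e-16 (edgeR). CXCR4 went from 1.26 ± 0.553 to 4.50 ± 1.15 CPM in 2102 EP (−6.90 ± 0.30, adjusted p = 2.09e-13) and ANGPTL4 from 1.61 ± 1.24 to 5.50 ± 0.458 CPM (−6.39 ± 0.39, adjusted p = 4.82e-09), both from a level near the floor. VIM, which fell in TCam-2, had a log2 fold change of 1.45 in 2102 EP (difference −3.86 ± 0.13, adjusted p = 2.57e-15).

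In the positive direction CD24, a surface glycoprotein, rose in TCam-2 (194, 189 and 179.8 CPM with DMSO and 359.5, 345 and 355 CPM with I-BRD9; log2 fold change 0.91 ± 0.07, adjusted p = 1.06e-09) and fell from 323 ± 3.01 to 59.2 ± 3.77 CPM in 2102 EP, a difference of 3.36 ± 0.10, adjusted p = 4.05e-16. DPYSL3, a protein of axon growth, rose from 39.8 ± 2.64 to 60.0 ± 5.30 CPM in TCam-2 and fell from 403 ± 9.78 to 117 ± 7.24 CPM in 2102 EP (2.38 ± 0.12, adjusted p = 3.65e-12). CHAC1, which degrades glutathione, fell in both lines, from 15.7 ± 1.33 to 8.58 ± 1.57 CPM in TCam-2 and from 63.2 ± 5.03 to 4.92 ± 1.30 CPM in 2102 EP (2.83 ± 0.24, adjusted p = 1.36e-08). SLC7A11, the cystine transporter, fell by 0.67 in TCam-2 and by 2.92 in 2102 EP on the log2 scale (2.26 ± 0.26, adjusted p = 1.56e-06); its call in TCam-2 ended without DMSO replicate 3 (adjusted p = 0.0669). CDKN1C rose in both lines, with log2 fold changes of 3.14 and 3.05, and its difference did not pass (0.09 ± 0.15, adjusted p = 0.763). NANOG fell in both lines and by more in TCam-2, with log2 fold changes of −5.35 and −3.19 (difference −2.17 ± 0.18, adjusted p = 2.04e-08).

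**Figure D5:**
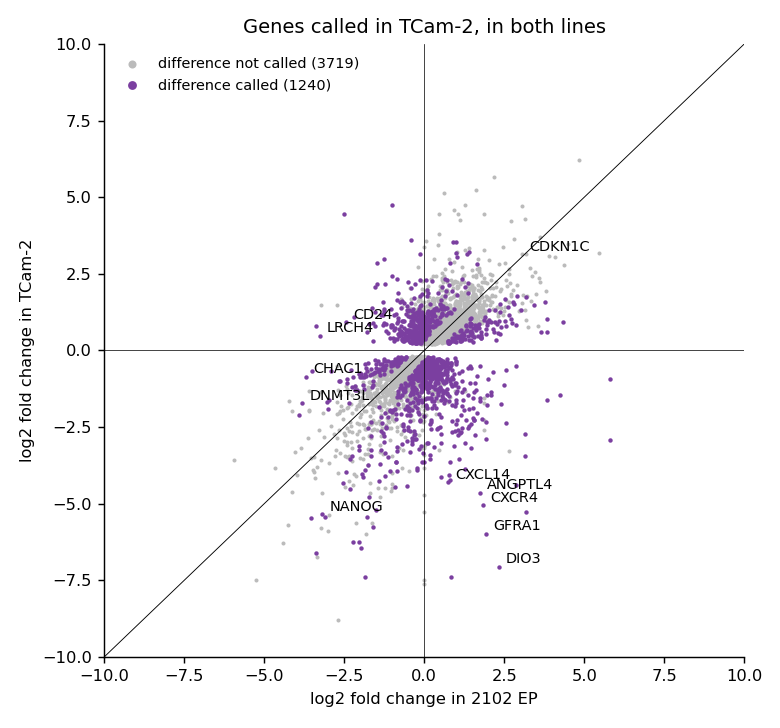
Log2 fold change in TCam-2 (vertical axis) against that in 2102 EP (horizontal axis) for the 4959 genes called in TCam-2, with the line of equal change. Purple points are genes whose difference between the lines was called (518 rises and 722 falls), with CXCR4, CXCL14 and ANGPTL4 at the lower right and CD24 and LRCH4 at the upper left.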

How the data were processed

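RNA of the 12 cultures was made into QuantSeq libraries, which count the 3′ ends of polyadenylated transcripts. The deposited table holds gene-level estimated counts made with Salmon 1.9.0 on GRCh38, with STAR 2.7.11b and Trim Galore also named, per the submitters' processing notes. Annotation release and strand setting: not given in the sources used here. Columns were matched to samples by the code in each sample's description, and all 12 were used. Estimated counts were rounded to whole numbers. edgeR 4.0.16 (filterByExpr, TMM, robust quasi-likelihood test, R 4.3.3) was fitted to all 12 libraries with 4 group means, and 3 contrasts were read from it: I-BRD9 minus DMSO in each line and their difference. Calls are at a Benjamini-Hochberg adjusted p under 0.05 over the genes tested, and every adjusted p in the text is from this edgeR fit unless another tool is named. The procedure was first tested on simulated data. CPM values are means ± SD of 3 libraries, and folds are I-BRD9 over DMSO. Log2 fold changes carry after ± an approximate standard error worked back from the quasi-likelihood test. It is the absolute log2 fold change divided by the square root of the F statistic. A bare number in parentheses after a gene is its log2 fold change.

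Library totals of 8246626 to 10053366 counts limit the precision at low levels. Gene coordinates are from GENCODE 29 (GRCh38), which holds 58228 of the identifiers (92.1%), and promoters are from RefSeq (GRCh38.p14), with chromosome 8 left out. The members and gene lists were chosen with earlier results of these data known. Genes named are BRD9 and BRD7, the 15 largest rises and falls in log2 and the 10 largest in CPM among called genes with separated groups and at least 10 CPM, the 10 most positive and 10 most negative differences between the lines, genes with no count in 1 group, up to 4 called members per list and 3 per family, and the leading noncoding RNAs. Some genes that this rule or a list selects are not reported here by name, though they count in the totals. Other list members are examples chosen after their values were seen. Alternatives were DESeq2 1.42.0, limma 3.58.1 (voom), other scalings and filters, a fit on 6 libraries, blocks, and leaving out each library.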

Additional observations from a re-analysis of the deposited data

Results flagged for a closer look

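The effect of I-BRD9 differed between the lines, by the edgeR interaction term, for 921 genes that were more positive and 1122 that were more negative in TCam-2. Among the 10 most negative differences (TCam-2 minus 2102 EP, log2) of genes called in TCam-2 with separated groups and at least 10 CPM were those of DIO3 (−9.40), RSPH10B (−8.73), GFRA1 (−7.90), CXCR4 (−6.90), EBF2 (−6.59), ANGPTL4 (−6.39), CXCL14 (−5.06), FNDC5 (−4.45) and SLITRK4 (−4.31). The 10 most positive were those of LRCH4 (3.76), CD24 (3.36), CHAC1 (2.83), LYPD1 (2.60), DPYSL3 (2.38), ZBTB3 (2.34), SLC7A11 (2.26), CRIP2 (2.17), SLC22A23 (2.12) and DNMT3L (2.08). DIO3 had 3 counts over the TCam-2 I-BRD9 libraries, so its fitted difference depends on the prior count, while in 2102 EP it went from 0.716 ± 0.0811 to 3.68 ± 0.423 CPM. RSPH10B, GFRA1 and EBF2 stayed below 1 CPM on average in 2102 EP, where RSPH10B and EBF2 had no count with DMSO. Their fitted differences depend on the prior count as well. The difference ended for EBF2 without 2102 EP I-BRD9 replicate 2 (adjusted p = 0.101), for GFRA1 without 2102 EP I-BRD9 replicate 3 (adjusted p = 0.126), and for RSPH10B without that library or without TCam-2 I-BRD9 replicate 2 (adjusted p up to 0.0637). The call of LRCH4 in TCam-2 alone ended without DMSO replicate 1, DMSO replicate 2 or I-BRD9 replicate 3 (adjusted p 0.138 to 0.214), and that of LYPD1 without DMSO replicate 1, DMSO replicate 2 or I-BRD9 replicate 2 (adjusted p 0.0506 to 0.0531) and with the replicate number as a block (adjusted p = 0.0563). SLC7A11 lost its TCam-2 call without DMSO replicate 3 (adjusted p = 0.0669). DNMT3L fell in both lines, from 52.0 ± 7.81 to 3.69 ± 0.0143 CPM in 2102 EP.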

How the results depend on the processing

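Of the counts over all genes, those of at least 2-fold changes moved by over 1.5 times under 1 alternative, a filter of at least 10 CPM in 3 libraries, which left 9770 genes and gave 343 rises and 415 falls of that size. Leaving out 1 library at a time gave 1934 to 2078 rises and 2211 to 2302 falls in TCam-2, 666 to 711 and 756 to 797 of them at least 2-fold, 697 to 883 positive and 914 to 1155 negative differences, and 2228 to 2628 genes called in both lines in the same direction with 218 to 265 in the opposite one. Of the 4959 calls, 3972 to 4080 were kept without 1 library, and none was called in the opposite direction under any alternative run. DESeq2 called 2306 rises and 2503 falls. With upper-quartile scaling 52.8% of calls were rises, against 48.2% as reported. With the replicate number as a block (replicate block) 2224 rises and 2437 falls were called. Same-numbered libraries had deviations correlated at r = 0.16, 0.0338 and 0.127, and libraries of unlike number at −0.181 to 0.0481. The second principal component (14% of the variance) followed the replicate number in both groups. Replicates 1, 2 and 3 stood at 22.94, −3.03 and −19.03 with I-BRD9 and at 32.39, −1.12 and −32.15 with DMSO. The reported fit has no block for this order. A block by consecutive library codes gave 2199 rises and 2408 falls. Of the called genes named, both blocks ended the calls of ARID1B, BCL11A, MARCHF1, MYO5C, PSMC2 and SMARCE1, the replicate block that of LYPD1, and the library-code block those of CDKN2D, MCM6 and PSMC3. Of 286 called genes named by the rule 237 kept the call in all 15 alternatives for TCam-2 and 49 lost it in at least 1. Among the lists, counts of 8 or fewer moved by over 1.5 times most often: ribosomal protein falls ranged from 4 to 15, BAF subunit rises from 2 to 3 and falls up to 8 in the fit on the 6 TCam-2 libraries, and trophoblast and mesoderm falls down to 3 with the stricter filter. SS18 and ID1 passed in the fit on the 6 libraries (adjusted p = 0.0314 and 0.00521). Genes near 3 counts per library (0.299 to 0.365 CPM) have uncertain folds.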

Other observations

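Lists outside the account above held calls in both directions, against 15.3% of all genes called higher and 16.5% called lower. Of 17 neuronal genes tested 6 rose (35.3%), among them the intermediate filament genes NES (1.11), NEFM (0.90) and INA (0.72), and 5 fell (29.4%; 2 or 3 falls without DMSO replicate 1 or without any 1 I-BRD9 replicate), among them ENO2 (−0.74) and GAP43 (−0.83), the latter losing its call without I-BRD9 replicate 1 (adjusted p = 0.0637). Of 31 glycolysis and hypoxia genes 10 fell (32.3%), of which 7 encode enzymes of glycolysis (GPI, ALDOA, TPI1, PGK1, PGAM1, ENO1 and ENO2), while 8 rose (25.8%), among them the glucose transporter genes SLC2A1 (0.52) and SLC2A3 (0.35) (4 or 5 without DMSO replicate 2 or 3 or without I-BRD9 replicate 1 or 2). Of 29 antioxidant and ferroptosis genes 9 rose (31.0%), among them both ferritin chains, GCLC (0.67) and GPX4 (0.72), and 5 fell (17.2%). Of 28 WNT and Notch genes 6 rose (21.4%), among them DKK3 (0.83) and HEYL (2.02), and 5 fell (17.9%; 8 without I-BRD9 replicate 3), shares near those of all genes, among them SFRP1 (−0.53) and NOTCH3 (−0.50). After the metallothioneins, the longest runs of neighbouring coding genes called in the same direction held 6 genes, on chromosome 1 from 1401908 to 1534687 (MRPL20 to ATAD3A, lower) and on chromosome 19 from 7636881 to 7923250 (STXBP2 to SNAPC2, higher).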
